A study of Homo sapiens with 8 samples.

Results

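The 29 genes described here make cholesterol and fatty acids or control that synthesis, and they were followed in SAS cells, an established line from a human squamous cell carcinoma of the tongue, after transfection with 1 of 3 miRNA mimics. They were taken by name: every gene probe of the array whose listed gene name was a member of the set belonged to it, which gave 36 probes for 29 of the 43317 gene names on the array. The 4 groups were cells given a mimic of miR-874-3p, one of miR-629-3p, one of miR-210-3p, or a negative control RNA (NC), each at 25 nM, and each group had 2 arrays. All groups shared the same parental line and medium, which contained puromycin. The methods call the cells SAS/GFP, SAS cells carrying a GFP vector, and give 24 h from transfection to RNA, whereas the labels write SAS and give 48 h. According to the methods the mimics and the NC came from different suppliers, so mimic and supplier cannot be told apart in a comparison with NC. The cells were a single line at a single dose, and no source used here says that the 2 arrays of a group came from separate cultures, so the p-values measure only the spread between these samples, which may be technical. The question behind the arrays was what each miRNA changes in the transcriptome of cells in which cisplatin resistance was under study.

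As background, cholesterol is built from acetyl-CoA through the mevalonate pathway, which leads to squalene, and through a series of ring-forming and demethylating steps that lead from squalene to cholesterol. Fatty acids are built from the same acetyl-CoA. Both routes are controlled at the level of transcription by the sterol regulatory element-binding proteins, made by SREBF1 and SREBF2. These proteins are held in the endoplasmic reticulum by SCAP and the INSIG proteins when sterols are plentiful and are released and cleaved when sterols run low, so that their target genes, INSIG1 among them, tend to move together.

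The mature sequences of the 3 miRNAs are shown because the groups differ by them alone in name. They come from RefSeq (GRCh38.p14) and are printed 5′ to 3′, with the seed, bases 2 to 8, in capitals.
miR-629-3p: gUUCUCCCaacguaagcccagc
miR-210-3p: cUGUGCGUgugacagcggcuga
miR-874-3p: cUGCCCUGgcccgagggaccga
The miR-629-3p sequence lies at chr15:70079387-70079408, that of miR-210-3p at chr11:568112-568133 and that of miR-874-3p at chr5:137647582-137647603, all on the minus strand. No pair of them shares a seed. The 7 bases complementary to each seed occurred in 0 of the 36 member probes, against 0.747% of all 58201 gene probes for miR-629-3p, 0.131% for miR-210-3p and 0.387% for miR-874-3p. That says only that those letters are not in these 60-base probes.

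Signals are given as log2 of the background-subtracted signal relative to the 75th percentile of its array, so 0 is that percentile and a difference of 1 is 2-fold. Levels of different probes are not compared. The arrays had 41.8% to 49.8% of probes well above background, highest for miR-629-3p (48.3% and 49.8%) and lowest for NC (41.8% and 42.4%), and no spot was saturated. All 8 arrays lay on 1 slide scanned at 1 time. Row 1 of the slide held miR-210-3p and miR-629-3p, and row 2 held NC and miR-874-3p, so slide row cannot be told apart from the mimic where miR-629-3p or miR-210-3p is set against NC or miR-874-3p, while miR-629-3p against miR-210-3p, and miR-874-3p against NC, are comparisons within a row. Of 8 epithelial markers (KRT5, KRT14, KRT17, TP63, CDH1, EPCAM, KRT8 and KRT18), all 8 were well above background on all 8 arrays. Signals were summed before the log2, so the brightest markers weigh most in each sum below. Their summed signal was 9.95 to 9.97 after miR-629-3p, 10.29 to 10.30 after miR-210-3p, 10.27 to 10.29 after miR-874-3p and 10.28 to 10.37 after NC. Of 5 fibroblast markers, COL1A2, DCN and LUM were well above background on no array, and 2 were tested, with a summed signal of -0.86 to -0.84, -0.32 to 0.90, -1.19 to -1.06 and -1.30 to -1.29 in the same order of groups. Of 4 leukocyte markers, 3 had probes and PTPRC and CD14 were well above background on all arrays, and the 2 that were tested summed to 1.36 to 1.45, 1.75 to 1.82, 1.24 to 1.87 and 1.56 to 1.64. Of 3 endothelial markers, CDH5 and VWF were well above background on all arrays, and the 3 summed to 1.33 to 1.44, 0.46 to 0.68, 0.32 to 0.47 and 0.53 to 0.59. The epithelial sum was thus lower, and the endothelial sum higher, on the miR-629-3p arrays than on any other. The fibroblast sum was higher on the miR-210-3p arrays than on any other. These 2 arrays were far apart, and of the fibroblast markers only PDGFRB was well above background on all 8 arrays. The part of these sums in the results was not tested. The cells were a single line, and in its bulk RNA a signal from fewer cells and a lower signal per cell cannot be told apart.

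Of the 29 genes, 28 passed the filter and were tested among 21283 genes, and 27 of these were well above background on all 8 arrays. The exception was SC5D, dim throughout and not well above background on NC replicate 1. The gene left out was STARD4, which carries sterols between membranes, because the spot on NC replicate 1 was flagged as an outlier. Its signal was 2.09 and 1.94 after miR-629-3p, 1.37 and 1.26 after miR-210-3p, 0.88 and 1.61 after miR-874-3p and 2.49 (the flagged spot) and 1.2 after NC. The NC arrays thus held the highest value and the second lowest, on either side of both miR-629-3p arrays. With outlier spots kept STARD4 could be tested, and its difference from NC with miR-629-3p was 0.17 ± 0.45 (adjusted p = 0.827). It was called in 0 of the 6 comparisons, with 0 at an unadjusted p under 0.05 and likewise 0 in the authors' table.

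Most of these genes read slightly higher with miR-629-3p than in NC cells, and few differences passed the test. The median log2 difference over the 28 was 0.24 and 26 of them were higher, against a median of 0.07 and 59.0% higher over all genes tested. With miR-210-3p the median was 0.07 with 19 of 28 higher, against 0.09 and 63.0% over all genes. With miR-874-3p it was 0.03 with 16 of 28 higher, against -0.003 and 49.3%. Both miR-629-3p arrays lay above both NC arrays in 23 genes and below them in 1, where 40.6% and 25.8% of all genes did so. For miR-210-3p the counts were 13 above and 8 below, against 42.0% and 20.2% of all genes, and for miR-874-3p 9 above and 4 below, against 20.6% and 22.7%. The 3 comparisons share the NC arrays. By group means, miR-629-3p ranked highest of the 4 in 18 of the 28 genes and lowest in 0. The share of all genes ranked so was not counted. Set against miR-210-3p and miR-874-3p, 23 and 24 of the 28 were higher with miR-629-3p, where 48.9% and 59.4% of all genes were. The plot of signals relative to NC shows these shifts array by array.

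**Figure D1:**
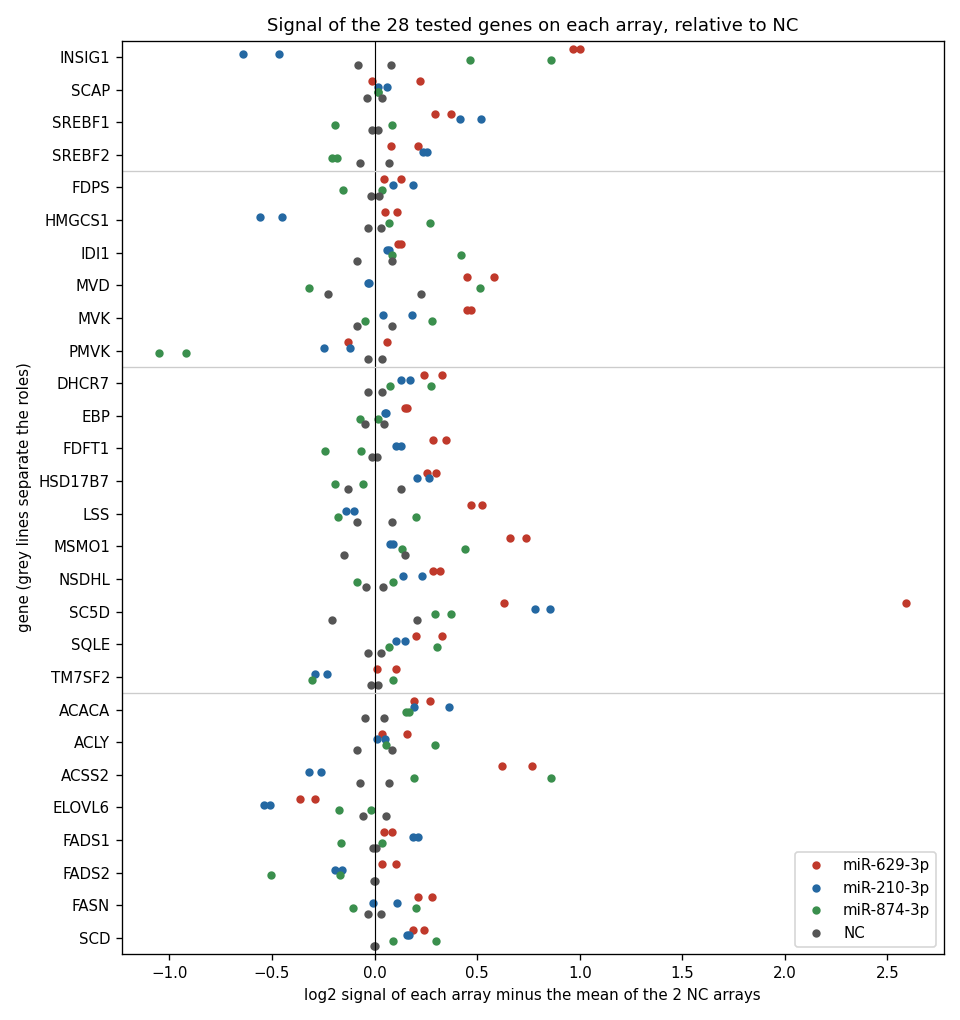
Signal of the 28 tested genes on each of the 8 arrays (log2, horizontal axis) minus the mean of the 2 NC arrays, with genes in rows ordered by role and 1 point for each array. The miR-629-3p points lie to the right of both NC points in 23 of the 28 genes, INSIG1, HMGCS1 and ELOVL6 lie to the left for miR-210-3p, and PMVK lies near -1 for miR-874-3p.

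At an adjusted p under 0.05 (limma, Benjamini-Hochberg over the 21283 genes), 2 members were called above NC for miR-629-3p (INSIG1 and MSMO1), where 11.3% of all genes were. Of members called lower there were 0, where 6.0% of all genes were. At an unadjusted p under 0.05, limma had 13 of the 28 members higher and 1 lower, against 4580 and 2627 of all 21283 genes. With miR-210-3p, 2 members were lower (HMGCS1 and ELOVL6), where 1.93% of all genes were, and 0 were higher, where 4.83% were. Before adjustment 3 members were higher, as were 4114 of all genes. With miR-874-3p, 1 member was lower (PMVK), where 0.197% of all genes were, and 0 were higher, where 0.216% were. Here 1 member was higher before adjustment, as were 1687 of all genes. After Benjamini-Hochberg adjustment the methods' t-test called 0 members in these 3 comparisons, where of all 21283 genes it called 0.0094% higher and 0.0047% lower with miR-210-3p, 3 genes together, and 0 with either other mimic. Before adjustment its counts of members higher and lower were 11 and 1 (miR-629-3p), where 17.1% and 9.93% of all genes were, 4 and 5 (miR-210-3p), where 15.8% and 6.98% were, and 0 and 1 (miR-874-3p), where 3.96% and 4.95% were. At the threshold of an unadjusted p under 0.05 and at least 2-fold, limma called 1 member, SC5D with miR-629-3p, where 4.03% of all genes were higher and 1.47% lower. At that threshold it called 0 members for miR-210-3p, where 2.23% of all genes were higher and 1.03% lower, and 0 for miR-874-3p, where 1.52% were higher and 0.503% lower. The F test across the 4 groups called 8 of the 28 members, 28.6%, where 25.7% of all genes were called. These 8 were INSIG1, SREBF1, SREBF2, HMGCS1, PMVK, FDFT1, MSMO1 and ELOVL6.

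**Figure D2:**
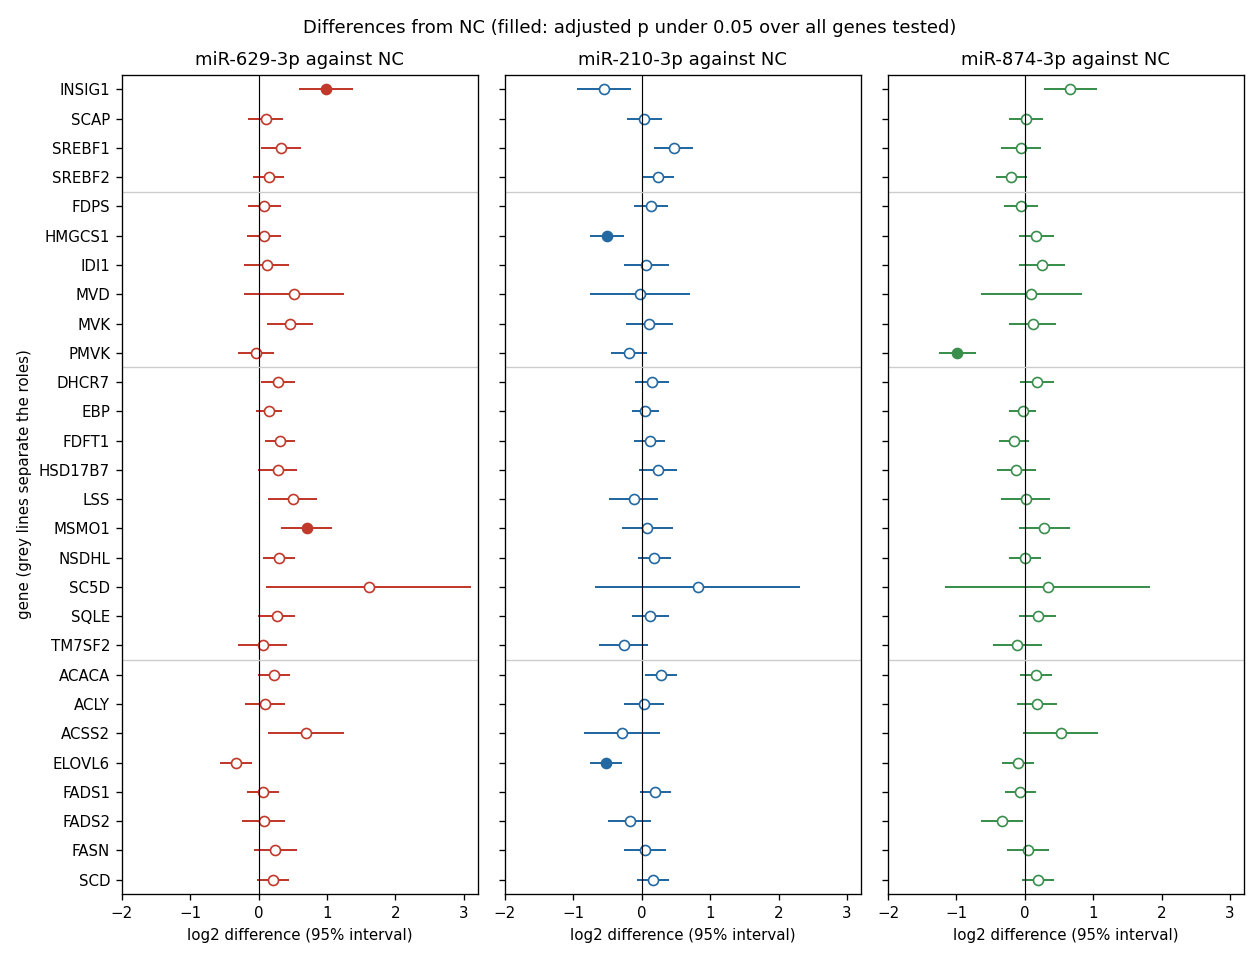
Log2 difference from NC of each tested gene (points) with its 95% interval from the limma fit (bars), in 1 panel for each mimic, with filled points for an adjusted p under 0.05. INSIG1 and MSMO1 are filled to the right for miR-629-3p, HMGCS1 and ELOVL6 to the left for miR-210-3p and PMVK to the left for miR-874-3p, and SC5D has the widest intervals.

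Set against each other, the mimics differed in more members, and calls were also common over all genes. In either direction, 4623 of the 21283 genes were called for miR-629-3p against miR-210-3p and 3687 for miR-629-3p against miR-874-3p. For miR-210-3p against miR-874-3p the number was 2366. With miR-629-3p, 5 members were higher than with miR-210-3p (INSIG1, ACSS2, MSMO1, LSS and HMGCS1), 17.9% of those tested, where 10.1% of all genes were called higher and 11.7% lower. Of members called lower there were 0, and 0 were lower before adjustment, where 4219 of all genes were. The methods' t-test had 1 lower before adjustment, where 4083 of all genes were. Against miR-874-3p, 3 were higher with miR-629-3p (PMVK, FDFT1 and SREBF2), where 11.5% of all genes were, and 0 were lower, where 5.82% were. Before adjustment 1 was lower by limma and 0 by the methods' t-test, where 2501 and 1408 of all genes were. Against miR-874-3p, the signal was higher with miR-210-3p in 3 members (PMVK, SREBF1 and SREBF2), where 7.9% of all genes were, and 3 were lower (INSIG1, HMGCS1 and ELOVL6), where 3.22% were. These comparisons share arrays with each other and with those against NC.

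The promoters of 4 of the 5 members that were higher with miR-629-3p than with miR-210-3p are shown, because these calls were the most numerous in 1 direction of any comparison. Each is the 250 bases before the start of the gene in RefSeq (GRCh38.p14), on the strand of the gene. Capitals mark CCAAT, the box bound by NF-Y, or CACGTG, an E-box, on either strand, so that ATTGG is CCAAT read from the other strand.
INSIG1, chr7:155297628-155297877, plus strand: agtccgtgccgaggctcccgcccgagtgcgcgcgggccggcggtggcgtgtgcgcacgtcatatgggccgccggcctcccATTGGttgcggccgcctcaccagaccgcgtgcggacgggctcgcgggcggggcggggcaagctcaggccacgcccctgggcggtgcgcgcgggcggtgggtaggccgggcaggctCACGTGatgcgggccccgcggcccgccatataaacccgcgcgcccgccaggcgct
HMGCS1, chr5:43313413-43313662, minus strand: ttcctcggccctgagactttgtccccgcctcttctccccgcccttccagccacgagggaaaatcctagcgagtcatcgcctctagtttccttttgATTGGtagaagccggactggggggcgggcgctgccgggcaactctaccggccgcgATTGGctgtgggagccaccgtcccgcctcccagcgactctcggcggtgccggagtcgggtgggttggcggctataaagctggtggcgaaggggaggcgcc
MSMO1, chr4:165327419-165327668, plus strand: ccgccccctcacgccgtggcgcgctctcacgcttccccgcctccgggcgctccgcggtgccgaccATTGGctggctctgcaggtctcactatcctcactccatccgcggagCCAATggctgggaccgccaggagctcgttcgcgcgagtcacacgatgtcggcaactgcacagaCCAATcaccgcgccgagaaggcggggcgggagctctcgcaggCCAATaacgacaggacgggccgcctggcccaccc
LSS, chr21:46228775-46229024, minus strand: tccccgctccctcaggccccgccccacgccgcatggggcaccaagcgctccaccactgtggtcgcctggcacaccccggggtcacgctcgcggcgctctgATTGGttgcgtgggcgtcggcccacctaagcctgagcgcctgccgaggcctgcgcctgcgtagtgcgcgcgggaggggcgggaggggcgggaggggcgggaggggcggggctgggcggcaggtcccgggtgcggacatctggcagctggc
The first base of the CCAAT box lay 170 bases before the start of INSIG1, with an E-box at 55, and 150 bases before that of LSS. HMGCS1 held 2 boxes, at 155 and 100, and MSMO1 held 4, at 185, 139, 76 and 34. A start of HMGCS1 further downstream is also listed and is not shown. The classical sterol regulatory element TCACNCCAC, searched on both strands with no overlap with the other motifs, was in none of the 4 and in 1 of the 36 member windows, that of SREBF2, against 0.883% of all 35116 windows. CCAAT was in 24 of the 36 member windows, 66.7%, against 32.0% of all windows, and in 20 of the 26 members with a window. CACGTG was in 4 member windows, of INSIG1, SC5D and SCAP, against 6.34% of all. A match is a description of the letters and not of binding. FDFT1, SQLE and FASN have no entry in the table.

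Among the regulators, INSIG1 showed the widest range of all called members. Its probe lies at chr7:155101843-155101902 on hg19, the build of the array annotation. The signal was 4.82 and 4.85 after miR-629-3p, 3.39 and 3.21 after miR-210-3p, 4.31 and 4.71 after miR-874-3p and 3.93 and 3.77 after NC. No 2 groups overlapped, and the order was miR-629-3p, miR-874-3p, NC and miR-210-3p. INSIG1 rose 1.98-fold with miR-629-3p over NC (log2 difference 0.98 ± 0.15, SE, adjusted p = 0.0144). Against NC the log2 difference was -0.55 ± 0.15 for miR-210-3p (adjusted p = 0.0866) and 0.66 ± 0.15 for miR-874-3p (adjusted p = 0.141), which did not pass. Set against miR-210-3p, miR-629-3p gave a 2.90-fold difference (1.54 ± 0.15, 95% interval 1.16 to 1.91, adjusted p = 0.00468), the largest called among the members, and it remained called with any 1 array left out. With miR-210-3p the signal was 43.1% of that with miR-874-3p (-1.21 ± 0.15, adjusted p = 0.0132). The neighbours in the order, miR-629-3p and miR-874-3p, differed by 0.32 with an interval from -0.05 to 0.70 and an adjusted p of 0.201. The rise over NC lost its call without miR-629-3p replicate 1, miR-629-3p replicate 2 or NC replicate 2 (adjusted p 0.0827, 0.0795 and 0.0707), and the difference between miR-210-3p and miR-874-3p without miR-210-3p replicate 1 or replicate 2 (0.0753 and 0.0802).

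The SREBP genes differed less. SREBF1, which mainly serves fatty acid synthesis, read 6.65 and 6.58 after miR-629-3p, 6.80 and 6.70 after miR-210-3p, 6.09 and 6.37 after miR-874-3p and 6.30 and 6.27 after NC. Both miR-210-3p arrays and both miR-629-3p arrays lay above the other 4. The difference of miR-210-3p from NC was 0.47 ± 0.11 (adjusted p = 0.0643) and that of miR-629-3p from NC 0.33 ± 0.11 (adjusted p = 0.0966), while the difference of 0.52 ± 0.11 between miR-210-3p and miR-874-3p was called (adjusted p = 0.0414). A second, dimmer SREBF1 probe read -0.02 ± 0.11 for miR-210-3p against NC and 0.08 ± 0.11 against miR-874-3p. SREBF2, which mainly serves cholesterol synthesis, read 3.57 and 3.43 after miR-629-3p, 3.59 and 3.61 after miR-210-3p, 3.17 and 3.15 after miR-874-3p and 3.28 and 3.43 after NC. The miR-874-3p arrays were the lowest, 0.34 ± 0.09 below miR-629-3p (adjusted p = 0.0475) and 0.44 ± 0.09 below miR-210-3p (adjusted p = 0.0342). Neither differed from NC by the test. SCAP, which escorts the SREBPs to the Golgi, stayed between 3.31 and 3.57 on all arrays, and its largest difference from NC was 0.10. The mean of the SREBF1 probes gave 0.30 between miR-210-3p and miR-874-3p (adjusted p = 0.121), which ended that call. Quantile normalization or centring on the median ended the SREBF1 and SREBF2 calls (adjusted p 0.0551 to 0.0878), and so did leaving out any array except miR-874-3p replicate 2 for SREBF1 (0.0539 to 0.197) and any array at all for SREBF2 (0.0502 to 0.209).

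In the mevalonate arm, 2 enzymes carried the calls and each moved with a different mimic. HMGCS1, the cytosolic synthase that makes HMG-CoA, read 4.45 and 4.38 after miR-629-3p, 3.88 and 3.78 after miR-210-3p, 4.40 and 4.61 after miR-874-3p and 4.37 and 4.31 after NC. Its probe lies at chr5:43290117-43290176 (hg19). The miR-210-3p arrays stood below all 6 others, while the other 3 groups lay between 4.31 and 4.61. With miR-210-3p the signal fell to 70.4% of NC (-0.51 ± 0.10, adjusted p = 0.0412). It was lower with miR-210-3p than with miR-874-3p by 0.67 ± 0.10 (adjusted p = 0.0172), and higher with miR-629-3p than with miR-210-3p by 0.59 ± 0.10 (adjusted p = 0.0135). The fall from NC lost its call without any 1 of the miR-629-3p, miR-210-3p or NC arrays (adjusted p 0.0917 to 0.181). The difference from miR-874-3p lost it without either miR-210-3p array (0.0887 and 0.101), and that from miR-629-3p without any 1 array of the 2 groups (0.0610 to 0.0821).

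PMVK, the phosphomevalonate kinase, was the member lower with miR-874-3p. Its probe, at chr1:154897398-154897457 (hg19), read 1.26 and 1.40 after miR-874-3p. It read 2.18 and 2.37 after miR-629-3p, 2.19 and 2.07 after miR-210-3p and 2.28 and 2.35 after NC. The miR-874-3p arrays stood apart from the other 6, which lay between 2.07 and 2.37. PMVK fell to 50.5% of NC with miR-874-3p (-0.98 ± 0.10, 95% interval -1.24 to -0.73, adjusted p = 0.0348), a comparison within a slide row. The same arrays were 0.95 ± 0.10 below miR-629-3p (adjusted p = 0.00657) and 0.80 ± 0.10 below miR-210-3p (adjusted p = 0.0137). Of these, the difference from miR-629-3p was called with any 1 array left out. The fall from NC was called without miR-874-3p replicate 2 and lost without each of the other 7 arrays (adjusted p 0.0617 to 0.100), at a difference of -0.92 to -1.02, and the difference from miR-210-3p was lost without either miR-210-3p array (0.0929 and 0.0682).

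The other 4 enzymes of this arm showed no call in any comparison. MVK, mevalonate kinase, read 6.56 and 6.57 after miR-629-3p and 6.02 to 6.38 on the other 6 arrays, a difference from NC of 0.46 (adjusted p = 0.0679). MVD, the decarboxylase that follows PMVK, read 1.46 and 1.59 after miR-629-3p, but its replicates were 0.69 and 1.52 after miR-874-3p and 1.24 and 0.78 after NC, so the difference of 0.52 from NC had an adjusted p of 0.270. IDI1, the isomerase, stayed between 3.61 and 4.11, and FDPS, which makes farnesyl diphosphate, between 7.06 and 7.40. FDPS has near-identical pseudogene copies whose transcripts could add to its signal.

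**Figure D3:**
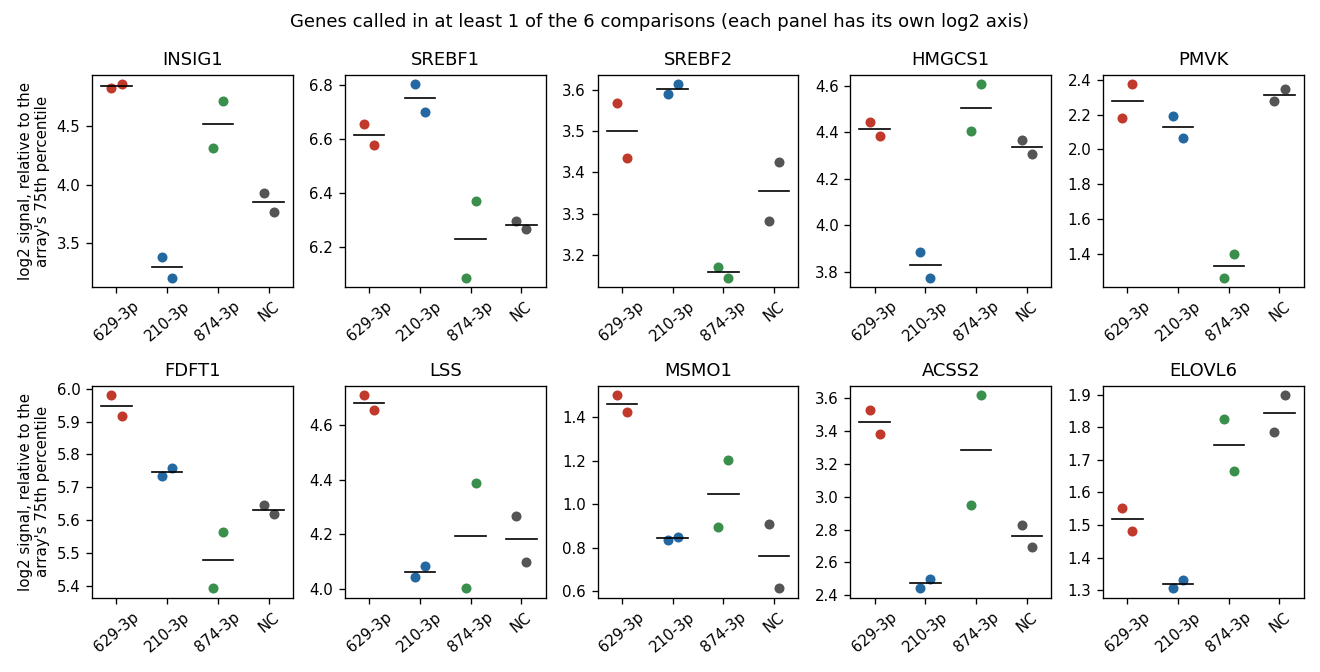
Signal (log2 relative to the array's 75th percentile) of the 10 genes called in at least 1 of the 6 comparisons, with 1 point for each array, a line at the mean of each group and a separate vertical axis in each panel. INSIG1 is highest with miR-629-3p at 4.82 and 4.85 and lowest with miR-210-3p, HMGCS1 is lowest with miR-210-3p, and PMVK is lowest with miR-874-3p at 1.26 and 1.40.

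All 10 enzymes from FDFT1, which makes squalene, on to cholesterol had a mean above that of NC with miR-629-3p. The differences were 0.06 to 1.61 with a median of 0.29, and both miR-629-3p arrays were above both NC arrays in 9 of the 10. Over all genes tested 59.0% were higher, with a median of 0.07, and 40.6% had both arrays above. The call went to MSMO1, a C-4 demethylase of the pathway. Its probe, at chr4:166263190-166263249 (hg19), read 1.5 and 1.42 after miR-629-3p, 0.84 and 0.85 after miR-210-3p, 0.89 and 1.2 after miR-874-3p and 0.91 and 0.61 after NC. The miR-629-3p arrays were the highest, and the other 6 lay between 0.61 and 1.2. MSMO1 rose 1.63-fold over NC (0.70 ± 0.14, adjusted p = 0.0285) and was 0.62 ± 0.14 higher than with miR-210-3p (adjusted p = 0.0334). The rise over NC lost its call without any 1 of the miR-629-3p or miR-210-3p arrays or NC replicate 2 (adjusted p 0.0630 to 0.137), and the difference from miR-210-3p without any 1 array of the 2 groups (0.116 to 0.146).

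LSS, lanosterol synthase, which closes the sterol rings, read 4.71 and 4.65 after miR-629-3p, 4.04 and 4.08 after miR-210-3p, 4.0 and 4.39 after miR-874-3p and 4.27 and 4.10 after NC. It was 0.62 ± 0.14 higher with miR-629-3p than with miR-210-3p (adjusted p = 0.0318), while the difference from NC of 0.50 ± 0.14 did not pass (adjusted p = 0.0642). The LSS probe used lies at chr21:47609299-47609358 (hg19). A dimmer probe, annotated to another transcript at chr21:47608567-47608626, read -0.13 ± 0.12 for miR-629-3p against miR-210-3p, and the mean of both probes gave 0.24 (adjusted p = 0.226). The call was also lost without any 1 array of the 2 groups (adjusted p 0.117 to 0.138). FDFT1, squalene synthase, read 5.98 and 5.92 after miR-629-3p, 5.74 and 5.76 after miR-210-3p, 5.39 and 5.56 after miR-874-3p and 5.64 and 5.62 after NC. No groups overlapped. FDFT1 was 0.47 ± 0.08 higher with miR-629-3p than with miR-874-3p (adjusted p = 0.0193), and 0.32 ± 0.08 higher than with NC, which narrowly missed the threshold (adjusted p = 0.0539). Its call was lost without either miR-629-3p array or either miR-210-3p array (adjusted p 0.0503 to 0.106).

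SC5D, the sterol C5-desaturase, had the largest difference from NC of any member and the least certain. Its signal was -2.15 and -0.18 after miR-629-3p, -2.0 and -1.92 after miR-210-3p, -2.40 and -2.48 after miR-874-3p and -2.98 and -2.57 after NC. A single miR-629-3p array, replicate 2, stood far above the other 7, whose range was -2.98 to -1.92. The difference from NC of 1.61 had an SE of 0.60 and an adjusted p of 0.123. The 6 other enzymes had differences of 0.06 to 0.30 from NC with miR-629-3p and no call in any comparison. NSDHL, which acts with MSMO1 in demethylation, read 5.41 and 5.37 after miR-629-3p against 5.13 and 5.05 after NC. DHCR7, which makes cholesterol from its last precursor, read 7.27 and 7.18 against 6.97 and 6.90. SQLE, the epoxidase that acts on squalene, read 7.04 and 6.91 against 6.75 and 6.68, and EBP, the sterol isomerase, 6.56 and 6.57 against 6.46 and 6.36. TM7SF2, a sterol reductase, stayed between -1.57 and -1.16 on all arrays. HSD17B7, a reductase of the pathway, read 2.22 and 2.18 against 2.06 and 1.80, and 2 further well-measured probes of it gave differences of 0.42 and 0.38 from NC, above the 0.28 of the probe used. HSD17B7 has a near-identical pseudogene copy, so its signal is uncertain.

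Of the 8 fatty acid genes, ELOVL6, the elongase of saturated fatty acids, fell with miR-210-3p. The probe at chr4:110971171-110971230 (hg19) read 1.55 and 1.48 after miR-629-3p, 1.31 and 1.33 after miR-210-3p, 1.83 and 1.67 after miR-874-3p and 1.79 and 1.90 after NC. The miR-210-3p arrays were the lowest, followed by the miR-629-3p arrays. With miR-210-3p the signal was 69.5% of NC (-0.52 ± 0.09, adjusted p = 0.0317) and 74.4% of miR-874-3p (-0.43 ± 0.09, adjusted p = 0.0385), and with miR-629-3p it was 0.33 ± 0.09 below NC without passing (adjusted p = 0.0577). A dimmer ELOVL6 probe at chr4:110967426-110967485 read the other way, 0.31 ± 0.22 above NC with miR-210-3p and 0.78 ± 0.22 above NC with miR-629-3p (adjusted p = 0.418 and 0.0685), and the mean of the 2 probes gave -0.11 for miR-210-3p (adjusted p = 0.572). The direction of ELOVL6 thus depends on the probe. The fall from NC was also lost without any 1 of the miR-629-3p, miR-210-3p or NC arrays (adjusted p 0.0764 to 0.166), and the difference from miR-874-3p without any 1 array except miR-874-3p replicate 2 (0.0605 to 0.183).

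ACSS2, which turns acetate into acetyl-CoA, read 3.53 and 3.38 after miR-629-3p, 2.44 and 2.50 after miR-210-3p, 2.95 and 3.62 after miR-874-3p and 2.83 and 2.69 after NC. The miR-210-3p arrays were the lowest, and the miR-874-3p replicates were further apart than those of any other group. ACSS2 was 1.98-fold higher with miR-629-3p than with miR-210-3p (0.98 ± 0.22, adjusted p = 0.0294). Its differences from NC were 0.69 ± 0.22 for miR-629-3p (adjusted p = 0.0823), -0.29 ± 0.22 for miR-210-3p (adjusted p = 0.439) and 0.52 ± 0.22 for miR-874-3p (adjusted p = 0.318). The call was lost without any 1 array of the miR-629-3p, miR-210-3p or NC groups (adjusted p 0.0508 to 0.134). The remaining 6 fatty acid genes showed no call. FASN, the fatty acid synthase, read 6.62 and 6.55 after miR-629-3p and 6.37 and 6.31 after NC. SCD, the desaturase that makes oleate, read 3.32 and 3.38 against 3.14 and 3.13. ACACA, which makes malonyl-CoA, read 5.87 and 5.79 against 5.56 and 5.65, and a second probe of it gave a difference of -0.03. ACLY, the citrate lyase, stayed between 3.14 and 3.53. The desaturases FADS1 and FADS2 stayed between 4.51 and 4.89 and between 2.36 and 2.97, and the lowest FADS2 value, 2.36, was miR-874-3p replicate 1.

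The 2 arrays of the miR-874-3p group differed in these genes mostly in 1 direction. In 23 of the 28 members replicate 2 was above replicate 1, with a median difference of 0.21 and a range from -0.16 to 0.83, while over all genes tested the median difference between the same arrays was -0.03 and 46.1% were higher on replicate 2. In the other groups the members' median difference between replicates was -0.04 for miR-629-3p, -0.04 for miR-210-3p and -0.06 for NC. Replicate 2 was above replicate 1 in 12, 9 and 7 of the 28 in that order, where 51.5%, 40.5% and 57.1% of all genes were. The NC arrays, shared by all comparisons with NC, thus also differed mostly in 1 direction, with replicate 2 the lower. In the miR-874-3p group the difference was largest for MVD (0.69 and 1.52) and ACSS2 (2.95 and 3.62). The median difference of the members from NC in the miR-874-3p group was 0.18 without replicate 1 and -0.06 without replicate 2, so its sign rests on which array is read. The absolute difference between replicates had a median over members of 0.21 for miR-874-3p, 0.09 for NC, 0.07 for miR-629-3p and 0.04 for miR-210-3p, against 0.19, 0.13, 0.10 and 0.10 over all genes.

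**Figure D4:**
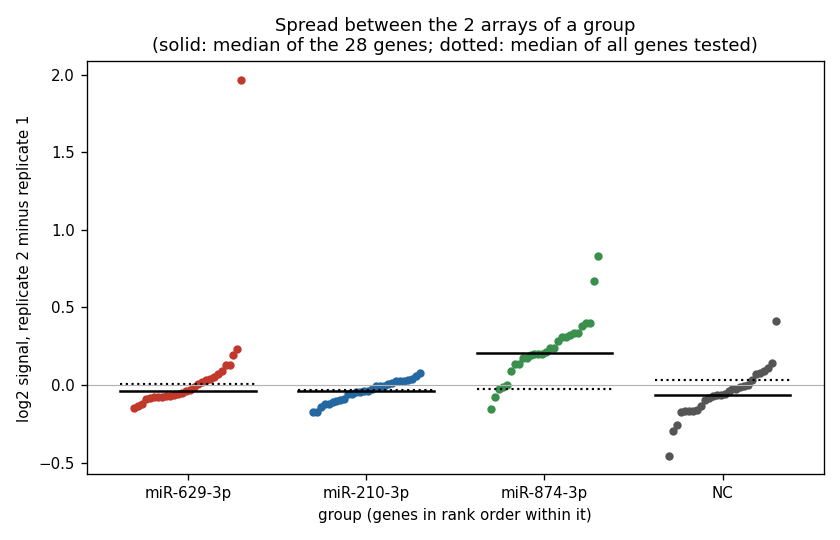
Difference in signal between the 2 arrays of each group (log2, replicate 2 minus replicate 1) for the 28 tested genes, in rank order within each group, with a solid line at their median and a dotted line at the median of all genes tested. The miR-874-3p median of 0.21 lies above its all-gene median of -0.03, the other 3 medians lie between -0.06 and -0.04, and the highest point is SC5D with miR-629-3p.

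Other genes of lipid metabolism were counted in 4 lists, with 39 of them tested. By limma, miR-629-3p gave 5 calls above NC and 3 below, 12.8% and 7.69% of the 39, where 11.3% and 6.0% of all genes were called. Likewise miR-210-3p gave 3 above (7.69%) and 0 below, where 4.83% and 1.93% of all genes were called. Before adjustment 2 were below, where 1660 of the 21283 genes were. With miR-874-3p 0 were above and 0 below, where 0.216% and 0.197% of all genes were. Before adjustment 4 were above and 1 below, where 1687 and 1747 of all genes were. The same shares of all genes apply to the counts of each list. Among 6 other sterol enzymes, 2 were higher for miR-629-3p and 2 for miR-210-3p, with medians of 0.27 and 0.08, and the median with miR-874-3p was -0.02. The 6 genes of SREBP processing and degradation held 0 calls, with medians of 0.11, 0.26 and 0.06 for the 3 mimics in the same order. Of 17 other genes of fatty acid and lipid synthesis, 3 were higher and 3 lower with miR-629-3p and 1 was higher with miR-210-3p, with medians of 0.04, 0.15 and 0.01. The 10 genes of sterol efflux, esterification and trafficking held 0 calls, with medians of 0.04, 0.08 and -0.18. A single gene of the lists was both called and at least 2-fold from NC. This was GGPS1, which makes geranylgeranyl diphosphate from the same farnesyl precursor as squalene. It read -1.51 and -1.51 after miR-210-3p, -1.85 and -2.14 after miR-629-3p, -2.10 and -1.81 after miR-874-3p and -2.57 and -3.17 after NC. The NC arrays were the lowest, and NC replicate 2 was not well above background. GGPS1 rose by 1.36 ± 0.22 with miR-210-3p (adjusted p = 0.0305) and by 0.88 ± 0.22 with miR-629-3p (adjusted p = 0.0490).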

How the data were processed

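The 8 arrays hold SAS cells given 1 of 3 miRNA mimics or NC, 2 for each group, with groups and replicate numbers from the labels. Per array, the authors deposited scanner output made with Agilent Feature Extraction 11.5.1.1 (version from the submitters' processing notes), whose processed signal is a background-subtracted intensity, not normalized between arrays. They also deposited a log2 table of unstated scale, which lay within 0.05 of log2 signal minus the 75th percentile, after a constant of 0.006 to 0.008, for 99.96% to 99.99% of probes. It served as an alternative, and its direction and centring by array were settled that way. Replicates were not pooled.

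From the intensities, log2 values were centred on the 75th percentile of the gene probes of their array, without spots flagged as outliers, and replicate spots were averaged. A probe was kept with a value on all 8 arrays and a well-above-background flag on each array of some group. The brightest probe of a gene was used, and other probes are given where they disagreed. Groups were compared with lmFit and eBayes (limma 3.58.1, R 4.3.3) on all 8 arrays with no covariate (4 residual degrees of freedom and 1.70 from the prior), adjusted by Benjamini-Hochberg over 21283 genes. On simulated arrays with 200 changed genes, it called 49% of log2 changes of 1 and 84% of changes of 2, with 8 false calls. The data held more calls, 3675 genes for miR-629-3p against NC, and smaller differences, with a members' median of 0.24. These shares are thus not recovery rates for the comparisons reported here. A gene without a call may still have changed. Every SE and adjusted p is from limma on the 8 arrays unless another setting is named. The number of arrays limits the precision, and a median 95% interval of a member's difference reached 0.26 (log2) to either side.

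The members, lists and tests were chosen with earlier results of these data known. All 29 members are described by role, in full where called. Alternatives were normexp background correction (offset 50), quantile normalization, median centring, the authors' table, a 75th percentile without outlier spots (added later), outlier spots kept, a floor on dim signals, other detection filters, the mean of a gene's probes, 2-group fits, a trended prior, a block for the replicate number, the t-test or ANOVA of the methods, and each array left out. Same-numbered arrays of different groups did not deviate together (correlations of -0.11 to 0.03), so the main fit used no pairing. How the samples were paired in preparation, if at all, cannot be read from this. A slide block was not run, as all arrays lay on 1 slide, and slide row as a block could not be fitted beside the groups. Deposited comparison columns were not used, and 0 columns lacked a sample. Sequences are from RefSeq, where all 3 miRNAs and 26 of 29 members matched.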

Additional observations from a re-analysis of the deposited data

Results flagged for a closer look

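Among the members, 9 differences between 2 mimics were flagged because the arrays of the 2 groups lay on opposite sides of both NC arrays and the direct comparison was called by limma (adjusted p under 0.05 over all genes tested). The share of all genes meeting both conditions was not counted, so the 9 has no baseline. Called alone were 4623, 3687 and 2366 of the 21283 genes, in the order of comparisons below. Between miR-629-3p and miR-210-3p these were INSIG1 (log2 difference 1.54, adjusted p = 0.00468), ACSS2 (0.98, 0.0294), LSS (0.62, 0.0318) and HMGCS1 (0.59, 0.0135). Between miR-629-3p and miR-874-3p they were FDFT1 (0.47, 0.0193) and SREBF2 (0.34, 0.0475). Between miR-210-3p and miR-874-3p they were INSIG1 (-1.21, 0.0132), HMGCS1 (-0.67, 0.0172) and SREBF2 (0.44, 0.0342). For HMGCS1 the miR-629-3p arrays cleared the NC arrays by little, at 4.38 against 4.37 for the nearest pair, and for SREBF2 at 3.43 against 3.43. The groups of 2 arrays are too small for a test of single outlying arrays.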

How the results depend on the processing

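Over 23 alternatives, the 19 called member differences kept their direction in all 437 refits, and the call was lost in 162 of these. Many of the refits could not change a direction, because they left the log2 difference itself unchanged. Among them were the trended prior, the replicate blocks, the methods' t-test and the fit of the compared groups alone. Leaving out an array from outside the comparison also left the difference unchanged. The count of kept directions is thus not a measure of robustness. No refit used a gene's dimmer probe alone. That probe read the other way for ELOVL6 with miR-210-3p against NC (0.31) and for LSS with miR-629-3p against miR-210-3p (-0.13). None of the 19 kept its call under every alternative. INSIG1 between miR-629-3p and miR-210-3p came closest, losing it to the methods' t-test alone (adjusted p = 0.0544). The median difference of the members from NC stayed at 0.16 to 0.25 for miR-629-3p, -0.01 to 0.07 for miR-210-3p and 0.01 to 0.08 for miR-874-3p with all arrays, and at 0.22 to 0.27, 0.02 to 0.15 and -0.059 to 0.18 with single arrays left out. The sign for miR-210-3p and miR-874-3p was thus not fixed. Why the counts of calls changed was not tested.

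The counts over all genes moved as well. Of the 21283 genes, 2399 were higher with miR-629-3p than NC, 2539 with normexp, 2996 with a trended prior and 0 with the t-test. With detection on all 8 arrays it was 2485 of 17406. With miR-210-3p 410 were lower, against 75 with the 2 groups alone, 1 with the t-test and 20 of 42661 with no detection filter. With miR-874-3p 42 were lower, against 3, 0 and 7 at these settings. The counts of members called against NC moved as follows. For miR-629-3p, 2 were higher, and the count was 10 with normexp background correction, 5 with detection on all 8 arrays, 9 with a trended prior and 0 with the methods' t-test. It was 0 to 9 with single arrays left out, with 9 without either miR-874-3p array and 0 without miR-629-3p replicate 2 or NC replicate 2. The 0 lower became 1 with normexp, quantile normalization, median centring, the 75th percentile without outlier spots, detection on all 8 arrays and the trended prior, and 0 to 1 with single arrays left out. For miR-210-3p, the 0 higher became 2 with normexp, 1 with detection on all 8 arrays and 2 with the trended prior, and 0 to 1 leaving out an array. The 2 lower became 1 with the mean of a gene's probes and 0 with no detection filter, with the 2 groups alone and with the t-test, and 0 to 3 leaving out an array. For miR-874-3p, the 0 higher became 1 with the trended prior, and the 1 lower became 0 with no detection filter, with the 2 groups alone and with the t-test, and 0 to 1 leaving out an array.

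Between mimics, the 5 higher with miR-629-3p than miR-210-3p became 1 with no detection filter, 8 with the 2 groups alone, 0 with the t-test and 1 to 7 leaving out an array. The 3 higher with miR-629-3p than miR-874-3p became 8 with normexp, 8 with detection on all 8 arrays, 8 with the trended prior, 1 with no detection filter, 0 with the 2 groups alone, 0 with the t-test and 1 to 10 leaving out an array. For miR-210-3p against miR-874-3p, the 3 higher became 1 with quantile normalization, 1 with median centring, 6 with the trended prior and 0 with no detection filter, the 2 groups alone or the t-test, and 0 to 2 leaving out an array. The 3 lower became 0 with no detection filter, the 2 groups alone or the t-test, and 0 to 3 leaving out an array. The 8 called across the 4 groups became 4 with quantile normalization, median centring or the 75th percentile without outlier spots, 2 with no detection filter, 5 with the mean of probes, 13 with the trended prior and 4 with the ANOVA, and 1 to 11 leaving out an array. The authors' table, outlier spots kept and the floor on dim signals moved none of these counts by over 1.5 times. Over all genes, the 2142 higher with miR-629-3p than miR-210-3p became 2671 with the 2 groups alone and 387 with the t-test. The 2448 higher than with miR-874-3p became 2724 with normexp, 3154 with the trended prior, 188 with the 2 groups alone and 0 with the t-test. The 5480 called across the 4 groups became 7819 with the trended prior, 3651 with the ANOVA and 987 of 42661 with no detection filter.

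With the replicate number as a block, 1 member was higher with miR-629-3p than NC, 0 were lower with miR-210-3p, 0 were lower with miR-874-3p, 2 were higher with miR-629-3p than miR-210-3p, 1 was higher with miR-210-3p than miR-874-3p, and 2 were called across the 4 groups. Over all genes tested, the block gave 1449, 162, 18, 1436, 594 and 2756 calls in the same order. The main fit gave 2399, 410, 42, 2142, 1681 and 5480. The correlations of same-numbered arrays do not show whether the samples were prepared in pairs. Why calls were lost under the block was not tested. Crossing the numbers of the miR-874-3p arrays, chosen after seeing the data, left 0 members lower with miR-210-3p and 0 lower with miR-874-3p.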
